A study of Mus musculus with 2 samples.

Results

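Most of the genes described here encode proteins of the cytosolic ribosome, and all were measured in mouse hippocampal RNA with and without exposure to cerium chloride. They were chosen by symbol alone: every gene whose single symbol in the platform annotation begins with Rpl or Rps and a digit, with Rplp0, Rplp1, Rplp2 and Rpsa, and without the Rps6k kinases and symbols that mark pseudogenes. The rule found 65 genes with 96 probes among 19057 named genes on the array. It took in Rps19bp1, a nucleolar protein that binds Rps19, and the retrogene Rps23rg1, which are named after ribosomal proteins without being the annotated subunits themselves. The rule also took in Rps4l, whose probe was designed on a RefSeq transcript of the non-coding class. Of the 89 protein-coding genes in the RefSeq gene table that meet the rule, 64 have a probe named here, and the others, Rpl5, Rpl11 and Rps27 among them, were not analysed here. All 65 genes matched that table by gene number.

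Male mice of the outbred ICR stock received cerium chloride (CeCl3), which is a lanthanide salt, into the stomach daily over 90 days, and control mice received purified water. The study had 75 mice in each group. The label of the treated sample names the doses 0.5, 1 and 2 mg per kg of body weight together, so the dose behind the CeCl3 array is unknown, and how many mice each array stands for was not stated. Both samples carry the label of an age of 4 weeks, which cannot be the age at the end of dosing. Each group had 1 Illumina bead array, so differences could not be checked against replicates and no p-values are given.

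Each array came from a BeadChip of its own, so effects of the chip and of the treatment cannot be told apart. At a detection p-value under 0.01, the CeCl3 array detected 17433 of 45281 probes and the control array 16434. All 4 probes of Xist, the RNA that silences an X chromosome in female cells, were detected on the control array (log2 signal 7.25 to 9.72) and 0 on the CeCl3 array (4.52 to 4.81), although both samples are labelled male. Of the 9 neutrophil markers listed, 8 had a summed intensity of 2504 on the CeCl3 array against 403. Only S100a8 and Lcn2 were detected on both arrays, with log2 differences (CeCl3 minus control) of 2.44 and 1.58, and the other 6 were detected only on the CeCl3 array. Oligodendrocyte markers had a median log2 difference of -0.25, with 9 of 11 lower and summed intensities of 96103 and 107880, and endothelial markers one of -0.18, with 6 of 8 lower and 10715 against 12048. Other lists leaned the same way: 7 of 10 microglia markers, 7 of 10 choroid plexus and ependymal markers, 5 of 8 astrocyte markers and 8 of 9 reference genes were lower. Of 5 erythrocyte markers 3 were higher. Over all named genes 5810 of 10416 were lower. Neuronal markers, at a median log2 signal of 13.2 on both arrays, had a median difference of 0.01 over 12 genes. The part of these cell types in the values below was not tested.

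The cytosolic ribosome joins a small subunit, which reads the messenger RNA, and a large subunit, which forms the peptide bond, and a flexible stalk of acidic proteins on the large subunit recruits the factors that drive each step. Cells make these proteins in matched amounts. Their messenger RNAs usually begin with a run of pyrimidines, the terminal oligopyrimidine or TOP tract, through which the mTORC1 kinase and Larp1 set how strongly they are translated. In neurons ribosomes are found in the cell body, in dendrites and near synapses, where local protein synthesis takes part in lasting synaptic change.

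The start regions of ribosomal protein genes are shown because the TOP tract is a feature that the choice by symbol did not use. RefSeq promoter windows of the mouse build GRCm38.p6, from 250 bases before to 50 bases after the annotated start, were at hand for 54 of the 65 genes (64 windows). A run of at least 8 C or T bases that reached within 20 bases of the start was present in 28 of the 64 windows (43.8%), against 2169 of 10867 windows of other named genes detected on the arrays and 21.0% of all 32851 windows. The letters CTTTCC, searched on both strands and able to lie inside such a run, were in 48.4% of the windows of ribosomal protein genes, in 26.2% of those of other detected genes and in 26.6% of all windows. The letters CCGGAAG, the core of the site of ETS factors, were in 37.5%, 15.7% and 8.86% in the same order, both strands again. TATAAA was in 9.38%, 7.44% and 13.6%, so ribosomal protein genes lay above other detected genes and below all windows. AAGATGG was in 12.5%, 7.05% and 6.34%, and GCGCATGC in 1.56%, 4.89% and 2.71%. The G+C content was alike in ribosomal protein genes and other detected genes (medians 59.3% and 60.7%) and lower over all windows (52.7%). In the windows printed here, 60 bases before to 20 bases from the start, capitals mark the longest run of at least 8 pyrimidines near the start and any of the letters searched; other runs stay in lower case.
Rpl38 (chr11:114668520-114668599, plus strand): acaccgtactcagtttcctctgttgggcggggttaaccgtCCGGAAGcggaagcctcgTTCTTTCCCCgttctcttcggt
Rplp2 (chr7:141447591-141447670, plus strand): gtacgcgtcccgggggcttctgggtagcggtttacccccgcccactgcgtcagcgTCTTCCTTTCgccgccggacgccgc
Rps6 (chr4:86857348-86857427, minus strand): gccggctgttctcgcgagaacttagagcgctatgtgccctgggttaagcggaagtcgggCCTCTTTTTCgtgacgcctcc
Rpl7a (chr2:26910747-26910826, plus strand): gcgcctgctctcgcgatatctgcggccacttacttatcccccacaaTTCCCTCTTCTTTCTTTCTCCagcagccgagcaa
Rpl4 (chr9:64173327-64173406, plus strand): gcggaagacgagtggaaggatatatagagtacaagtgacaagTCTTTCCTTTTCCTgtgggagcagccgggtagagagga
Rpl23 (chr11:97782420-97782499, minus strand): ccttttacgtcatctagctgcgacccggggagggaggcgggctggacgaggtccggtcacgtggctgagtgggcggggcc

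The first 4 of these windows hold a run that spans the annotated start: 10 bases in Rpl38, Rplp2 and Rps6, and 21 in Rpl7a. In Rpl4 a run of 14 bases ends 5 bases before the start, and Rpl23 has none of 8 or more near it. The printed windows are a selection and do not show how often a run spans the start. Among windows not printed, the run of Rps9 spans it (bases -6 to 3). Those of Rps24 (-37 to -19) and Rps25 (-22 to -9) do not, and Rps3a1 and Rpl36al have none of 8 or more. An annotated start may lie some bases away from the start used in hippocampus, so a window without a run says only that these letters are not there. The median log2 difference between the arrays was 0.03 over 22 detected genes with a run and 0.03 over 25 without, and both kinds included genes that were higher and genes that were lower.

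Ribosomal protein messages were among the brightest signals of both arrays. Of the 65 genes, 56 were detected on both arrays, 0 on 1 array alone and 9 on neither. The 56 had a median log2 signal of 12.5 (CeCl3) and 12.6 (control), where all 10416 named genes detected had 8.94 and 8.97. A probe's signal depends on the probe as well as on the RNA, so levels of different genes are not ranked as amounts of RNA. Of the 56 genes, 38 (67.9%) lay in the top 10% of detected genes by signal. Member probes made up 0.212% of all probes and held 3.16% (CeCl3) and 2.93% (control) of the summed positive intensity.

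The brightest probes of all lay near the top of the scale. Rplp1, an acidic stalk protein, had the highest intensity of any probe on the CeCl3 array, 64487, where the control value was 58293. Rpl38, a small protein of the large subunit required in mouse embryos for translation of Hox messages, had intensities of 53818 and 44475, with the CeCl3 array given first here and in what follows. Rps29, of the small subunit, had 50810 and 44527, and Rpl41, the shortest ribosomal protein, had 44077 and 38319. All 4 were brighter on the CeCl3 array as deposited, but quantile normalization sets the brightest probes of both arrays to the same values. After it their log2 differences were 0.02 (95% bead interval -0.02 to 0.07) for Rplp1, 0.08 (-0.05 to 0.21) for Rpl38, 0.00 (-0.14 to 0.14) for Rps29 and 0.05 (-0.18 to 0.28) for Rpl41. Without it those of Rplp1, Rpl38 and Rps29 were 0.15, 0.28 and 0.19. The bead interval covers only the spread over the beads of 1 array, from 19 to 140 beads for each probe of these genes.

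**Figure D1:**
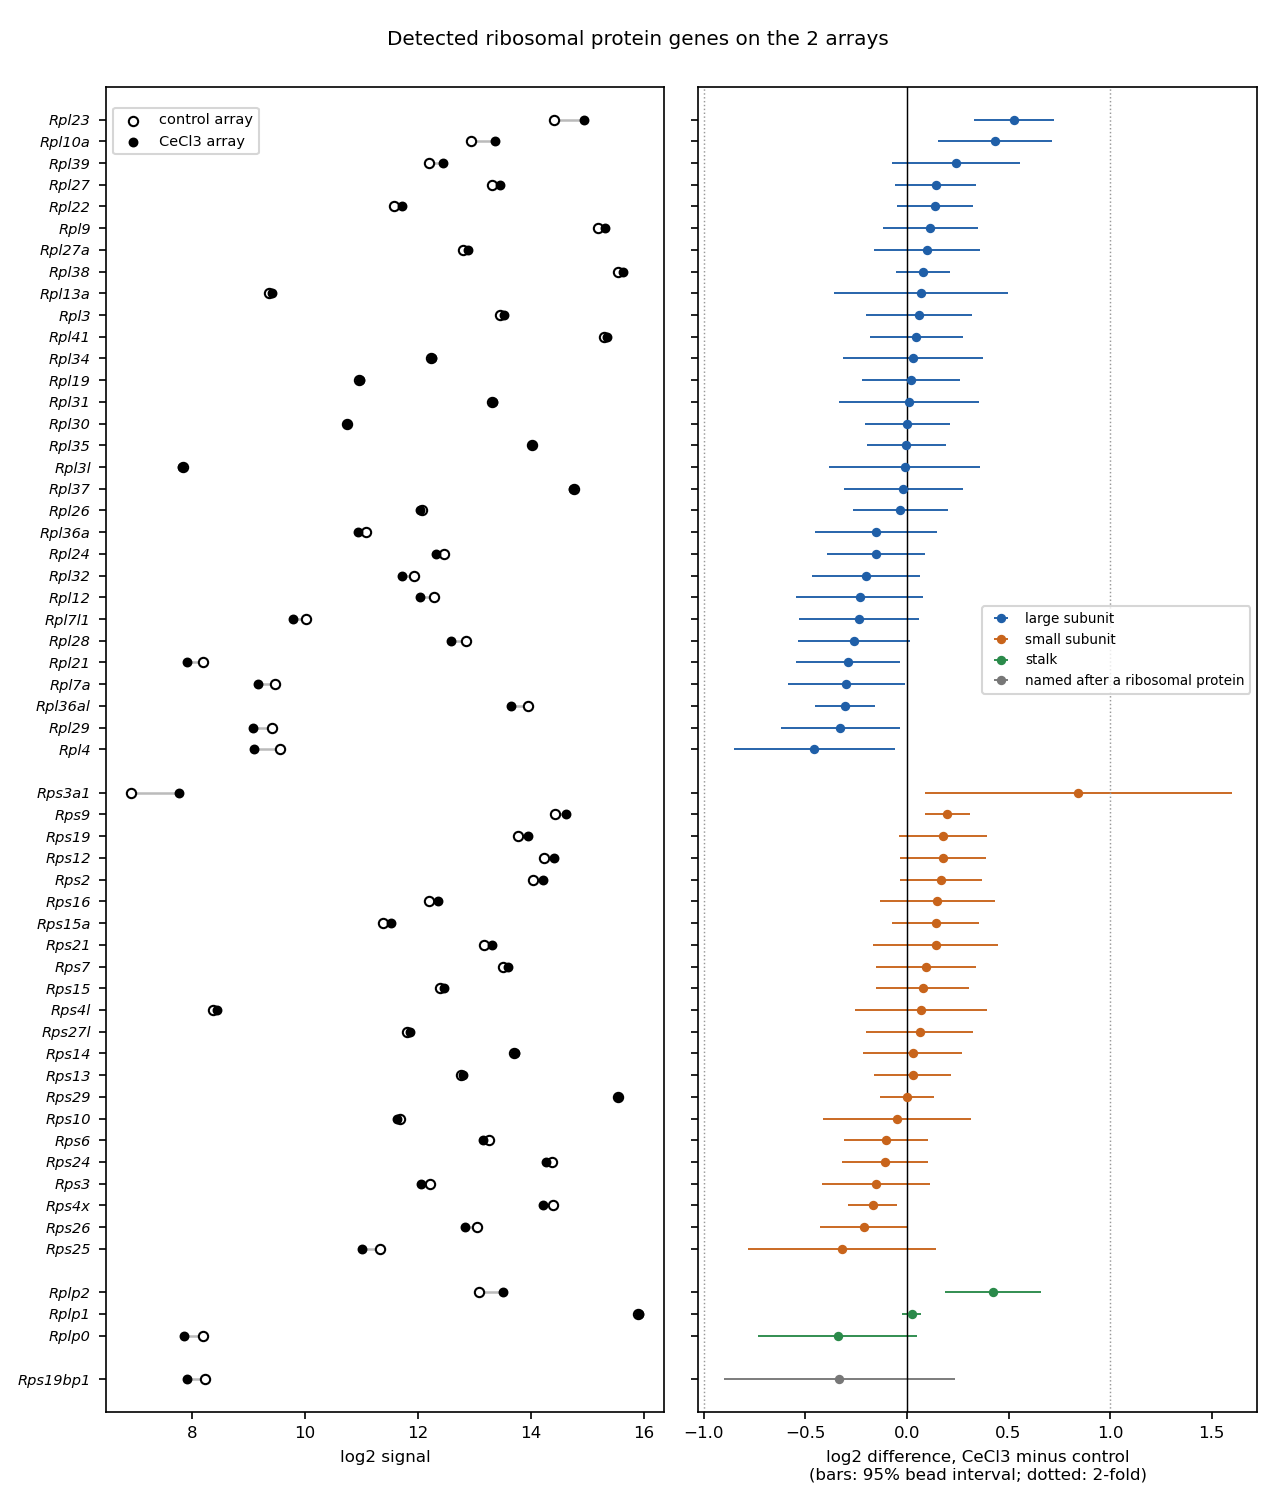
Left, log2 signal of the brightest detected probe of each of 56 genes on the CeCl3 array (filled) and the control array (open), ordered by subunit and difference; right, log2 difference between the arrays with its 95% bead interval. Most differences lie within 0.25 of 0, as do most of those of all named genes (median absolute difference 0.19). Rps3a1, at 0.84, is the farthest from 0.

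As a group the ribosomal protein genes hardly differed between the arrays. Their median log2 difference between the CeCl3 and the control array was 0.02, with 31 genes higher and 24 lower. The median of all named genes was -0.04, and 44.1% of them were higher. The median absolute difference was 0.14, against 0.19 over all named genes, and 43 of the 56 lay within 0.25 of 0, which is a fold of 1.19. These measures were not matched for signal. The share of all named genes within 0.25 was not counted. With a median absolute difference of 0.19, most of them lay within 0.25 as well. Ribosomal protein genes were brighter, and the median half-width of their bead intervals was 0.25, against 0.33 over all named genes. None of the 56 genes reached 2-fold in either direction on its brightest probe, while 2.77% of all named genes were higher by 2-fold or more and 1.95% lower by as much. Those genes were mostly dim, and over genes detected on both arrays the shares were 0.485% and 0.496%. Of the 6753 other genes with a mean log2 signal of at least 8, where 54 of the 56 lay, 0.311% were 2-fold higher and 0.222% 2-fold lower, so a count of 0 among 54 is near that background.

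A bead interval that left out 0 was found for 11 of the 56 genes, 5 above and 6 below. Over all named genes 10.5% lay above and 14.8% below, so the shares in ribosomal protein genes, 8.93% and 10.7%, were close to the background. These counts depend on the scaling. In the series matrix, which is not normalized between arrays and where the median of all named genes was 0.18, 11 intervals lay above 0 and 1 below (29.2% and 4.59% over all named genes). The ribosomal protein genes had a median of 0.10 there, below that of all genes, whereas after normalization they lay above it. With no quantile normalization 10 lay above 0 (17.9%) and 6 below (10.7%), against 11.1% and 14.1% over all named genes.

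Both subunits held genes that were higher and genes that were lower. The 30 detected large-subunit genes divided evenly, 15 higher and 15 lower, with a median of 0.00 and a range from -0.46 to 0.53. Of the 22 small-subunit genes 14 were higher and 7 lower, with a median of 0.07 and a range from -0.32 to 0.84. Rps4l, with its non-coding transcript, is counted among them.

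Among small-subunit genes Rps3a1, which lies near the exit of the messenger RNA, had the largest difference. It had intensities of 205 (CeCl3) and 109 (control), a log2 difference of 0.84 (bead interval 0.09 to 1.60). It was also the dimmest gene that was detected, and the offset added in the background correction shrinks the differences of dim probes. Over the alternative settings its difference ran from 0.70 to 1.45, the highest in the series matrix. Rps9, at the entry of the messenger RNA channel, had intensities of 25831 and 21043 and a difference of 0.20 (0.09 to 0.31). Its second probe lay at 0.12 (-0.13 to 0.37), so both probes of Rps9 were higher on the CeCl3 array. Rps19, the gene most often mutated in human Diamond-Blackfan anaemia, had 15753 and 14067 and a difference of 0.18 (-0.04 to 0.40), and Rps12 had 22403 and 18840 and a difference of 0.18 (-0.04 to 0.39). Both intervals hold 0.

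On the lower side Rps4x, encoded on the X chromosome, had intensities of 19269 and 20511 and a log2 difference of -0.17 (-0.29 to -0.05). With no quantile normalization the interval held 0 (-0.21 to 0.03), and in the series matrix it held 0 too, so it lay below 0 in 8 of 10 alternatives. Rps25, which is dispensable for most translation but needed at some internal ribosome entry sites, had 2055 and 2567 and a difference of -0.32 (-0.78 to 0.14) on a probe with only 19 beads on the CeCl3 array. Rps6, the classic substrate of the S6 kinases, had 9100 and 9799 and a difference of -0.10 (-0.31 to 0.10). Apart from the dim Rps3a1, all small-subunit genes lay between -0.32 and 0.20. Because Xist differed between the arrays, the X-linked members were set side by side: Rps4x, Rpl36a at -0.15 (-0.45 to 0.15) and Rpl39 at 0.24 (-0.07 to 0.56). They do not share a direction. The median over 328 named genes on the X chromosome was -0.05, beside -0.04 over all named genes. Whether the difference in Xist bears on these values was not tested.

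In the large subunit the highest differences belonged to Rpl23 and Rpl10a. Rpl23, which besides its place in the ribosome binds the p53 regulator Mdm2, had intensities of 31816 (CeCl3) and 20958 (control), a log2 difference of 0.53 (0.33 to 0.73). Rpl10a, the protein of the L1 stalk through which spent transfer RNA leaves, had 10537 and 7742 and a difference of 0.43 (0.15 to 0.72) on its single probe. Rpl39, which lines the exit tunnel of the nascent chain, followed with 5571 and 4716. The intervals of Rpl23 and Rpl10a lay above 0 under all 10 alternative settings tried. Settings that changed only the filters returned the same values for both, and the mean of probes cannot change Rpl10a, with its single probe. The high difference of Rpl23 is that of its brightest probe. Its other detected probes lay at -0.03 (-0.34 to 0.27) and 0.14 (-0.17 to 0.45).

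The lowest large-subunit genes were mostly of lower signal. Rpl4, which reaches into the exit tunnel, had intensities of 536 and 740 and a log2 difference of -0.46 (-0.85 to -0.06). Rpl29 had 532 and 669 and a difference of -0.33 (-0.62 to -0.03), and Rpl7a had 564 and 696 and a difference of -0.30 (-0.59 to -0.01). Rpl36al was the exception in brightness, with 12754 and 15751 and a difference of -0.31 (-0.45 to -0.16). Rpl21, the other large-subunit gene with an interval below 0, had 227 and 281 and a difference of -0.29 (-0.55 to -0.03) on its brightest probe. In the series matrix the intervals of Rpl4, Rpl29, Rpl7a and Rpl21 held 0, that of Rpl36al did not, and the difference of Rpl21 was -0.01 (-0.28 to 0.26).

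The stalk proteins went apart. Rplp2 had intensities of 11746 and 8713 and a log2 difference of 0.42 (0.18 to 0.66), which lay above 0 under all 10 alternative settings. For Rplp2, too, the settings that changed only the filters returned the same value. Its partner Rplp1 lay at 0.02, near the top of the scale. Rplp0, which anchors both to the ribosome and is widely used as a reference gene, had 220 and 282 and a difference of -0.34 (-0.73 to 0.05). This Rplp0 probe was dim, and its other probe was not detected on either array.

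**Figure D2:**
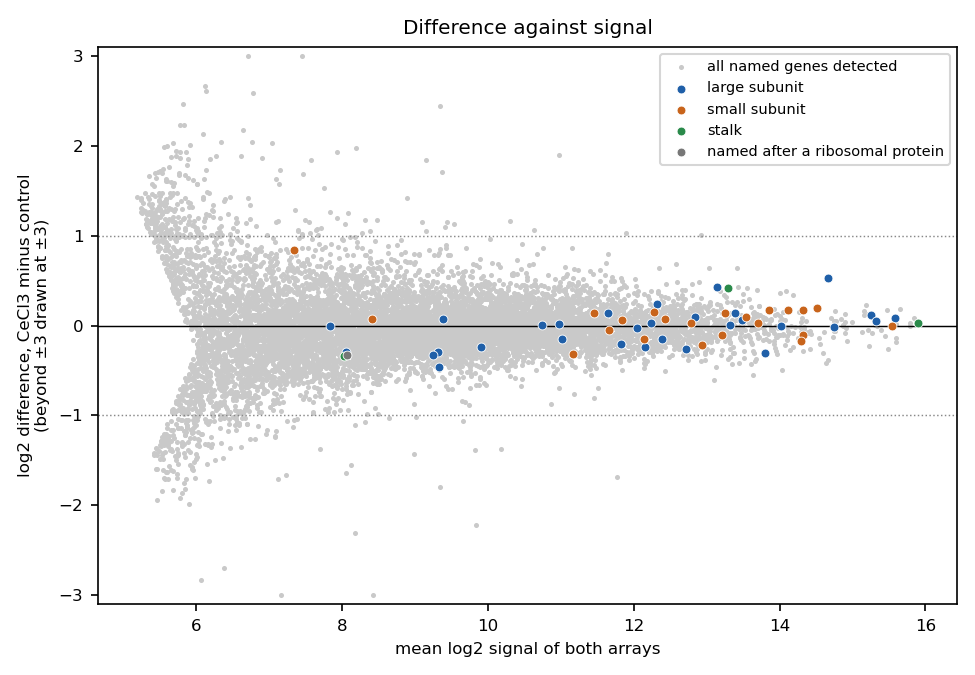
Log2 difference between the CeCl3 and the control array (y axis) against the mean log2 signal of both arrays (x axis) for 10416 named genes (grey) and 56 ribosomal protein genes (coloured by subunit); dotted lines mark 2-fold. The spread of all genes widens below a signal of 8, where 2 of the ribosomal protein genes lie.

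Dim and bright ribosomal protein genes leaned in different directions. Of the 11 with a mean log2 signal under 10, 8 were lower on the CeCl3 array, with a median of -0.29, while of the 45 at 10 or above 28 were higher, with a median of 0.03. The lower ones lay mostly between 8 and 10, where 7 of 9 were lower, against 1923 of 3393 other named genes. The 2 under 8, Rps3a1 and Rpl3l, lay at 0.84 and -0.01. Of other named genes under 10, 3936 of 7000 were lower, with a median of -0.05. At 10 or above 1501 of 3360 (44.7%) were higher, with a median of -0.02. Over the 56 genes, which share both arrays and are not independent, the difference and the mean signal had Pearson's r = 0.25 and Spearman's rho = 0.38. Over all named genes r was -0.01, and rho was not computed. The limit of 10 was set after the values were seen, so these counts are a description.

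Several probes of a gene gave the only internal check. Probes of 1 gene differed greatly in brightness: over 14 genes with at least 2 probes detected on both arrays, the highest and lowest log2 signal of a gene's probes lay a median of 2.93 apart, and 7.56 apart in Rps24. In 9 of the 14 genes (64.3%) the 2 brightest probes differed in the same direction, against 56.6% of 3114 named genes. They went opposite ways in Rpl23, Rpl31, Rpl38, Rps12 and Rps24. The case of Rpl23 bears most on the values above. Its second probe had intensities of 7954 and 8078 and a log2 difference of -0.03 (-0.34 to 0.27), another lay at 0.14 (-0.17 to 0.45), and the last was not detected, so the high difference of Rpl23 was seen on 1 of 3 detected probes. The mean of its probes gave 0.21.

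**Figure D3:**
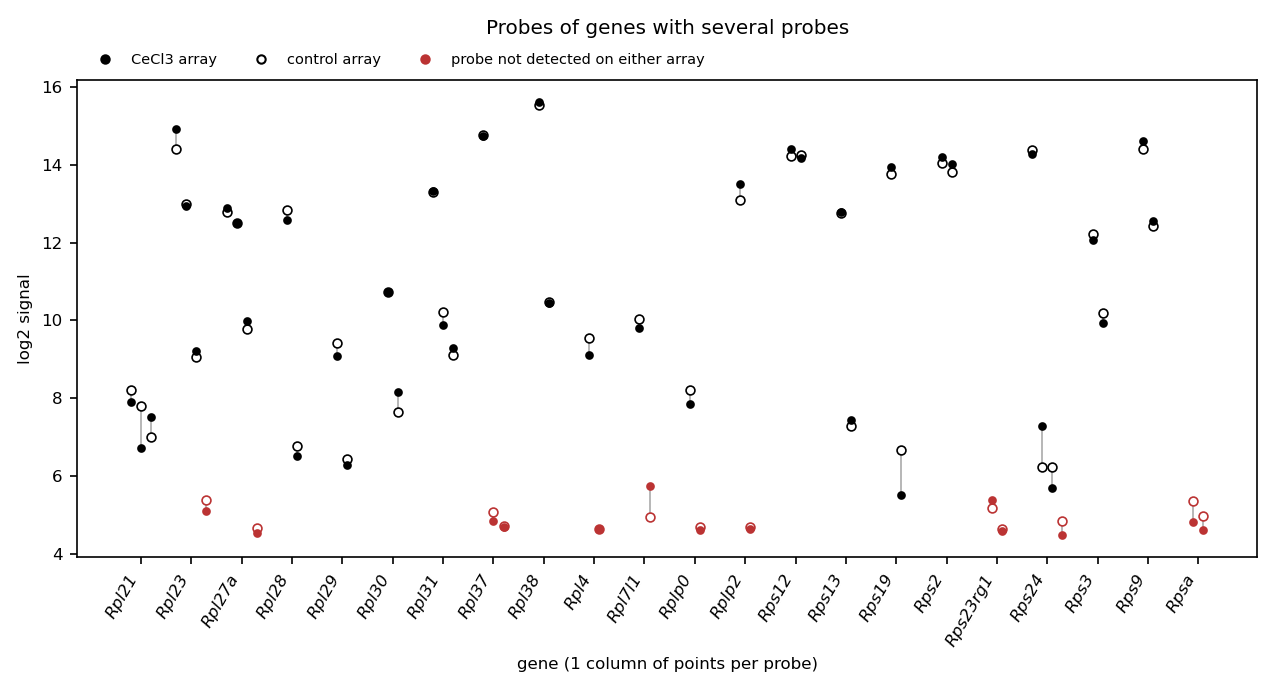
Log2 signal on the CeCl3 array (filled) and the control array (open) of every probe of the 22 genes with more than 1 probe; red marks probes detected on neither array. The probes of a gene lie up to 7.56 log2 units apart among those detected on both arrays (Rps24).

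Of the 76 member probes detected on at least 1 array, 1 was past 2-fold upwards and 2 were past it downwards, against 3.83% and 2.2% of such probes over all named genes. All 3 were dim probes, of Rps24, Rpl21 and Rps19. A probe of Rps24 designed on a cDNA clone had intensities of 143 and 63.0 and a log2 difference of 1.04 (0.45 to 1.64), while the brightest Rps24 probe, at 20276 and 20454, lay at -0.11 (-0.32 to 0.10). Another Rps24 probe, designed on a second RefSeq transcript, with intensities of 39.2 and 62.7, was detected only on the control array; the bound is at least 1.29-fold lower, leaving out bead error, and its bead interval held 0 (-1.29 to 0.22). The probe of Rpl21 had 93.3 and 210 and a difference of -1.07 (-1.57 to -0.58), and another went the other way at 0.51 (-0.05 to 1.07). The dim probe of Rps19 was detected only on the control array (31.9 and 89.0) and had a bound of at least 1.74-fold lower, with a measured log2 difference of -1.16 (-1.78 to -0.55).

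The 9 genes without a detected probe are named for completeness, which concerns their probes and gives no level of their RNA. They were the core proteins Rpl6, Rpl14, Rpl17, Rps20, Rps23 and Rpsa, the paralogs Rpl22l1 and Rpl39l, and Rps23rg1. The intensities of their probes ran from -24.6 to 41.3. Proteins such as Rpl6 and Rps23 are part of every ribosome. Rpsa, also known as the laminin receptor, had 2 probes and neither was detected. The RefSeq table lists 324 pseudogenes whose symbols begin as these do, and a probe may also bind their transcripts or those of a close paralog.

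Among paralogs, both partners were detected in few pairs. Rpl3l, the muscle form of Rpl3, had intensities of 215 and 217 and a log2 difference of -0.01 (-0.38 to 0.36), beside 0.06 (-0.20 to 0.32) for Rpl3. Rps4l, whose probe was designed on a non-coding RefSeq transcript, lay at 0.07 (-0.25 to 0.39), beside Rps4x at -0.17. The X-linked Rpl36a and its autosomal paralog Rpl36al had differences of -0.15 and -0.31, as given above. Rpl22, whose paralog Rpl22l1 was not detected, lay at 0.14 (-0.05 to 0.32), and Rpl39, whose paralog Rpl39l was not detected, lay at 0.24 as given above. For Rps27l, Rpl7l1 and Rpl26 the partners were not analysed here. Rps27l, which p53 induces in human cells, lay at 0.06 (-0.20 to 0.33) with intensities of 3720 and 3560. Rpl7l1, a relative of Rpl7, lay at -0.24 (-0.53 to 0.06), and Rpl26 lay at -0.03 (-0.26 to 0.20). Rps19bp1, which was detected and is not itself a subunit, had 228 and 290 and a difference of -0.33 (-0.90 to 0.24).

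Other genes of protein synthesis were set beside the ribosomal proteins. As background for the counts of each list, 4592 of all 10416 named genes (44.1%) were higher and 5810 lower. Of 17 measured elongation factors and other genes whose messages carry TOP tracts, 10 were higher and 7 lower, with a median log2 difference of 0.04. Eif3f, an initiation factor subunit in that list, had intensities of 10861 and 8605 and a difference of 0.34 (0.09 to 0.60), and the elongation factor Eef2 lay at 0.22 (0.01 to 0.42). Intervals lay above 0 in 2 of the 17 and below 0 in none, against 10.5% and 14.8% over all named genes. Of 72 mitochondrial ribosomal proteins, which build the separate ribosome inside mitochondria, 24 were higher and 48 lower, with a median of -0.08, which was 0.10 in the series matrix where all named genes lay at 0.18. The intervals of 15 of them lay below 0 and of 0 above. Mrpl55 was the lowest at -0.96 (-1.70 to -0.21), and Mrpl16 lay at -0.75 (-1.38 to -0.13). Both were dim, with intensities of 90.4 and 187 for Mrpl55 and 200 and 346 for Mrpl16.

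Of 51 ribosome assembly and nucleolar factors 17 were higher and 34 lower, with a median log2 difference of -0.03, 8 intervals below 0 and 1 above. Over all named genes 44.1% were higher, and intervals lay below 0 in 14.8% and above 0 in 10.5%. Nop14 and Tsr1, which act in the assembly of the small subunit, lay at -0.97 (-1.55 to -0.39) and -0.83 (-1.29 to -0.37). Both were dim, with intensities of 58.8 and 127 for Nop14 and 87.3 and 165 for Tsr1. Pno1, which acts in the same pathway and was named after its values were seen, had the list's single interval above 0, at 0.82 (0.45 to 1.19). The 12 measured genes of RNA polymerase I transcription had a median of -0.08 with 4 higher. Rrn3, an initiation factor of that polymerase, lay at -0.53 (-1.34 to 0.28) and its partner Taf1a at 0.32 (-0.05 to 0.70). The 31 initiation factors had a median of -0.06 with 11 higher, and their intervals lay above 0 in 4 and below 0 in 2. Eif1b, at intensities of 3870 and 1026, lay far from the rest at 1.90 (1.38 to 2.42), and Eif4ebp1 lay at -0.43 (-0.96 to 0.10).

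The list of mTORC1 and S6 kinase genes held 17 measured members, 7 higher and 10 lower, with a median log2 difference of -0.08. Intervals lay above 0 in 3 of them and below 0 in 4, against 10.5% and 14.8% over all named genes. The 2 with the largest absolute difference were both higher. Larp1, the protein that binds TOP tracts, was dim at intensities of 153 and 84.2 and lay at 0.77 (0.10 to 1.45), and Tsc1, an inhibitor of mTORC1, at 0.67 (0.17 to 1.17). The 13 measured genes of the p53 response, which free ribosomal proteins can trigger through Mdm2, had a median of -0.10 with 5 higher. Their intervals lay above 0 in 0 and below 0 in 3. Aen lay at -0.79 (-1.46 to -0.11) and Eda2r at -0.33 (-1.40 to 0.75). Among 5 measured host genes of small nucleolar RNAs, which guide the modification of ribosomal RNA, Snhg12 lay at -4.04 (-4.49 to -3.59) and Snhg11 at 1.01 (0.82 to 1.21). In the series matrix the medians of all 8 of these lists lay above 0, from 0.07 to 0.37. The lists share some genes, and in a tissue sample fewer cells of a type and less RNA per cell cannot be told apart.

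**Figure D4:**
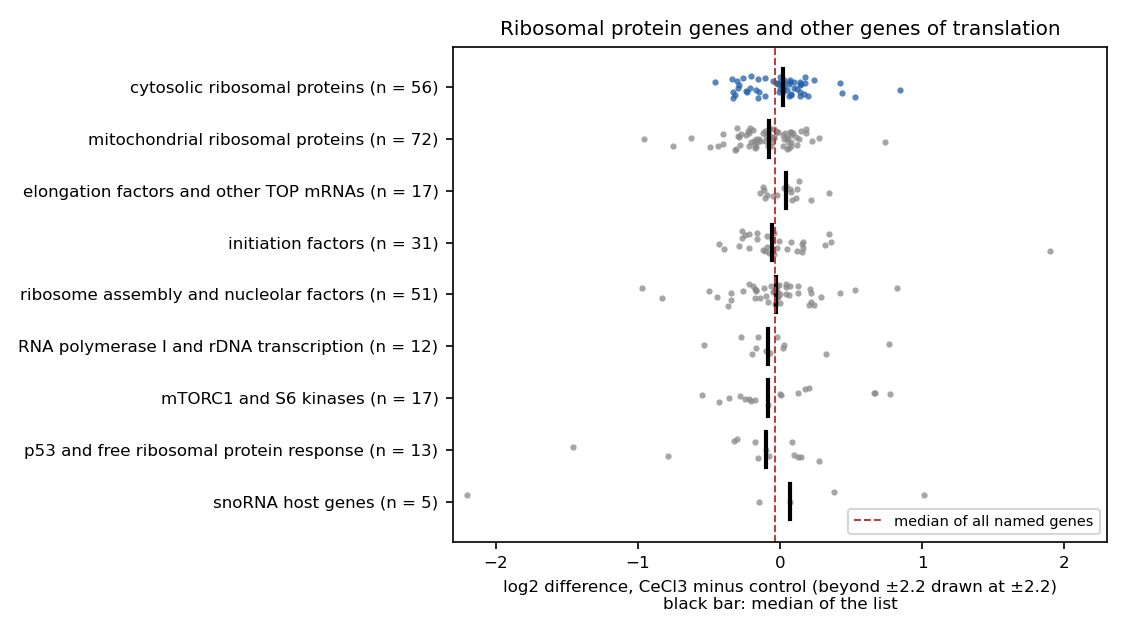
Log2 difference between the CeCl3 and the control array for each measured gene (points) of the ribosomal proteins and 8 other lists, with list medians (black bars) and the median of all named genes (dashed line). All 9 medians lie between -0.10 and 0.07 here, and all are above 0 in the series matrix.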

How the data were processed

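Total RNA of mouse hippocampus was labelled with biotin and hybridised to Illumina bead arrays, 1 per group, per the labels' protocols. The submitters' processing notes name BeadStudio, with its version not given in the sources used here. Per the file headers, the authors deposited the mean intensity of each probe, the standard error over its beads on the same signal scale, the count of beads and an unadjusted detection p-value. The deposited intensity is background-subtracted (27.1% of values below 0), and its percentiles 50 to 99 differ by at most 0.509% between the arrays, so it appears to be normalized already, whatever its name. The deposited series matrix intensity is not (ratio of 75th percentiles 1.28).

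Signals were corrected with normexp (offset 16, negative controls inferred from detection p-values), then quantile normalized and taken to log2 with limma 3.58.1 in R 4.3.3. The 95% bead interval is 1.96 standard errors over beads, converted to log2 by the delta method. A gene is its brightest probe detected (p under 0.01) on at least 1 array. No test across samples was possible. Bounds for probes detected on 1 array set the bright log2 signal against the lowest detected one of the other array (5.87 for CeCl3, 6.14 for control). The steps were tested on simulated data.

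Genes are named by rule: the 8 highest and 8 lowest members, the 4 brightest and 4 dimmest, those with a probe past 2-fold, paralog pairs, Rps6, Rplp0 and Rpsa, and per related list the 2 genes detected on both arrays with the largest absolute difference. Members, lists and rules were chosen with earlier results of these data known.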

Additional observations from a re-analysis of the deposited data

How the results depend on the processing

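With 1 array per group no array could be left out. No paired analysis was possible because the labels carry no replicate numbers and each group has 1 sample. Over 10 alternatives (offsets of 50 and 1, no normexp, no quantile normalization, the series matrix, the mean of probes, a detection limit of 0.05, detection on both arrays, no filter, RefSeq probes alone) and 1 added after seeing the data (without Rps19bp1 and Rps23rg1), the median log2 difference of ribosomal protein genes stayed between 0.01 and 0.10. Intervals above 0 numbered 10 without quantile normalization (17.9%, against 11.1% of all named genes) and 11 in the series matrix (19.6% against 29.2%), where 1 lay below 0 (1.79% against 4.59%) and 1 gene, Rps3a1, was 2-fold higher. With a detection limit of 0.05, and with no filter, 1 gene passed 2-fold downwards, Rpl17 at -1.13, whose probe the limit of 0.01 leaves out on both arrays. The median log2 signal was 12.9 on both arrays in the series matrix, 12.0 (CeCl3) and 12.1 (control) with the mean of probes, 12.3 and 12.2 with no filter, 12.4 (control) with a limit of 0.05, and 12.8 (control) without the added pair. The direction of all 11 genes with an interval past 0 was the same under the first 10 alternatives. Those that changed only the filters on probes returned the same values for these genes, so they add no check of direction. Over all named genes the 2-fold counts, 289 higher and 203 lower, became 70 and 37 with an offset of 50, 392 and 324 with 1, 386 and 318 with no normexp, 676 and 159 in the series matrix, 315 and 320 with a limit of 0.05, 46 and 47 with detection on both arrays, and 315 and 325 with no filter. Depth here is signal over background: for the 9 genes not detected at 0.01 a difference such as that of Rpl17 is one between signals near background.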
